A study of Homo sapiens with 4 samples.

Results

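The KRAB zinc finger cluster at 19p12 is a run of related genes between ZNF14 and ZNF254 that covers 4.42 Mb of chromosome 19, from position 19710472 to 24129968 of GRCh38. Its members were chosen by symbol, as 35 genes of this run. Of these, 32 were found among the 18917 genes counted, 17 had enough reads to be tested and 15 did not. The counts of ZNF66, ZNF724P and ZNF738 were not analysed here, and the first 2 of them enter only the comparison of promoters. The cluster lies on both strands, with 18 members on plus and 17 on minus.

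KRAB zinc finger proteins form the largest family of human transcription factors. Each joins an amino-terminal KRAB domain to an array of C2H2 fingers that reads DNA, often within a transposable element, and the KRAB domain recruits TRIM28 (KAP1), which brings the histone methyltransferase SETDB1 and HP1 proteins to build heterochromatin. The genes arose by tandem duplication, and those of 19p12 belong to a young primate branch in which ZNF91 and ZNF93 are known repressors of SVA and L1 retrotransposons.

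The 4 libraries held RNA of HEK-293T, a transformed line from human embryonic kidney that carries the SV40 large T antigen. WT is the unedited line (2 libraries) and KO is the line edited with CRISPR-Cas9 at THUMPD1 (2 libraries), the adapter protein that NAT10 needs to acetylate tRNA. Both were grown in DMEM with 10% serum and 2 mM glutamine, and total RNA was made into paired-end libraries. The labels name a RiboFree kit from Zymo, whereas the paper's RNA-seq methods name an Illumina stranded kit with Ribo-Zero Plus. The labels call the line HEK293. KO cells were made with a pair of guides and passed through single-cell sorting, and neither the number of clones nor a sorted WT control is given for these libraries, so that the genotype and the history of a clone cannot be told apart. Nothing states that the replicates were separate cultures, and p-values measure the spread between these libraries, which may be technical.

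The label check came first. THUMPD1 counts were 356 and 468 in WT, against 71 and 58 in KO, a log2 fold change of -2.93 (SE 0.17, adjusted p = 1.27e-12). Library totals ran from 7875722 to 11362363 counts, so that 3 counts, taken as the floor, were worth 0.259 to 0.391 CPM (counts divided by the TMM-scaled library size and put on a per-million scale). Replicates differed by more than sampling noise, with a chi-square per degree of freedom of 3.69 between the WT and 6.07 between the KO libraries. All 8 markers listed for HEK-293T cells were counted, among them VIM at 313 and 338 CPM and PAX2, a renal transcription factor, at 6.56 and 7.26 CPM in WT and KO. Of the 8, LHX1 and NEFL were called higher and NEFM and KRT18 lower in KO, with NEFM, a neurofilament subunit, at 181 CPM in WT and 24.7 CPM in KO, and their part in the members' values was not tested. LHX1 had 6 counts in each WT library and 37 and 27 in KO, and only its KO libraries reached 1 CPM. PTPRC, PECAM1 and ALB, markers of blood, endothelium and liver, stayed at 5 counts or fewer in every library. Of the mesenchymal and muscle markers on the same list, COL1A1 stood at 23.0 and 19.9 CPM in WT and KO and ACTA2 at 2.53 and 3.04 CPM, and COL1A2 had no more than 1 count in any library. Of the 13128 genes tested, 1154 were higher and 1594 lower in KO at an adjusted p under 0.05, and scaling by library size alone turned this split into 2081 higher and 1158 lower.

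The sequence in front of the annotated starts was compared between members, and it is given here for the 4 members called between the genotypes. RefSeq promoter entries (GRCh38.p14, 250 bases before to 50 after the start) matched 27 of the 35 members. The 150 bases before the start are printed 5′ to 3′ on the gene's own strand, with each CCAAT, the core of the motif that NF-Y binds, in capitals.
ZNF726, chr19:23914736-23914885, plus strand: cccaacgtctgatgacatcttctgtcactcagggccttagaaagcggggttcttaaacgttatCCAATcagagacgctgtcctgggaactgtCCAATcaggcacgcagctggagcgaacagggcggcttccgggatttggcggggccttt
ZNF91, chr19:23395472-23395621, minus strand: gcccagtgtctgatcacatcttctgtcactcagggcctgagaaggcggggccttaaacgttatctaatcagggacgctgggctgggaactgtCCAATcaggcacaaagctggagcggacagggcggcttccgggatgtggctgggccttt
ZNF714, chr19:21082053-21082202, plus strand: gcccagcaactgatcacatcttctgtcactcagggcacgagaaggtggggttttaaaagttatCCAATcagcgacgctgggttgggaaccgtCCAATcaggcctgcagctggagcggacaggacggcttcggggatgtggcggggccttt
ZNF682, chr19:20039506-20039655, minus strand: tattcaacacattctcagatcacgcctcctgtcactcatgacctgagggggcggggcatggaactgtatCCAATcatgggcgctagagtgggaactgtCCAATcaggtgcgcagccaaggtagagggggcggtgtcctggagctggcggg

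The first 3 of these sequences were close copies. The windows of ZNF91 and ZNF726 were 88.7% identical, those of ZNF714 and ZNF91 86.7%, and those of ZNF714 and ZNF726 84.8%. ZNF682 was 63.5% to 67.1% identical to them, and at most 71.2% identical to any member. The closest pair of all was ZNF714 with ZNF431, a member that was not called, at 92.7%. Whether promoter identity goes with the change in KO was not tested. Over all 351 pairs of member promoters the identity ranged from 37.5% to 92.7%, with a median of 76.3%.

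The 10 bases shared by most member promoters, sought on the gene's own strand, were TCCAATCAGG. Matched on both strands, they stood in 25 of 27 (92.6%). They were picked for being frequent in these promoters, so their high share in members was set by that choice. The same letters stood in 36 of 619 promoters of other zinc finger genes (5.82%) and in 122 of all 35116 promoters (0.347%). They began at a median of 58 bases before the start. Among the members, 15 of 16 tested genes and 8 of 9 genes below the filter held them, so the letters did not separate members with reads from members without. CCAAT, which lies within these 10 bases, was in all 27 member promoters, in 40.2% of those of other zinc finger genes and in 34.6% of all. The longer CCAATCA, which overlaps both, was in all 27, in 82 of the 619 promoters of other zinc finger genes and in 6.95% of all. In the 150-base window, 18 of the 27 promoters held 2 copies of CCAAT on the gene's own strand (20 with both strands counted), and ZNF91 is one that held a single copy. Such a match describes the letters and is not evidence of a bound site.

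The cluster was active in part. Summed over its 32 counted members, it gave 1225 and 1911 counts in the WT and 2631 and 2188 in the KO libraries, which is 160 and 174 CPM against 227 and 205 CPM. ZNF714 alone supplied between 28.9% and 31.8% of the summed CPM in each library. In bulk RNA, fewer cells of a kind and less RNA per cell cannot be told apart.

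Levels differed in blocks along the chromosome. The 4 stretches that follow were bounded after the levels were seen, so they are a description. From ZNF14 to ZNF626, 4 of 9 counted members were tested, and together the 9 stood at 16.6 and 13.6 CPM in the WT and 12.8 and 15.3 CPM in the KO libraries. From ZNF85 to ZNF100 all 8 counted members were tested, and their sum was 119.0 and 134.0 CPM in WT and 175.0 and 155.0 CPM in KO. From ZNF43 to ZNF730 the 10 counted members gave no more than 3.47 CPM together in any library, and ZNF492 alone passed the filter. From ZNF91 to ZNF254, 4 of 5 were tested, with sums of 21.5 and 22.5 CPM in WT and 37.1 and 31.5 CPM in KO. In 10 tested members both KO libraries lay above both WT libraries. The stretch from ZNF85 to ZNF100 held 7 of them and that from ZNF91 to ZNF254 held 3. The remaining stretches held the 2 tested members in which both KO libraries lay below, ZNF682 and ZNF492. This split holds for tested members only. Of the members below the filter, ZNF253, ZNF93, ZNF43 and ZNF208, in the remaining stretches, also had both KO libraries above. So did ZNF681, while ZNF730 had both below.

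**Figure D1:**
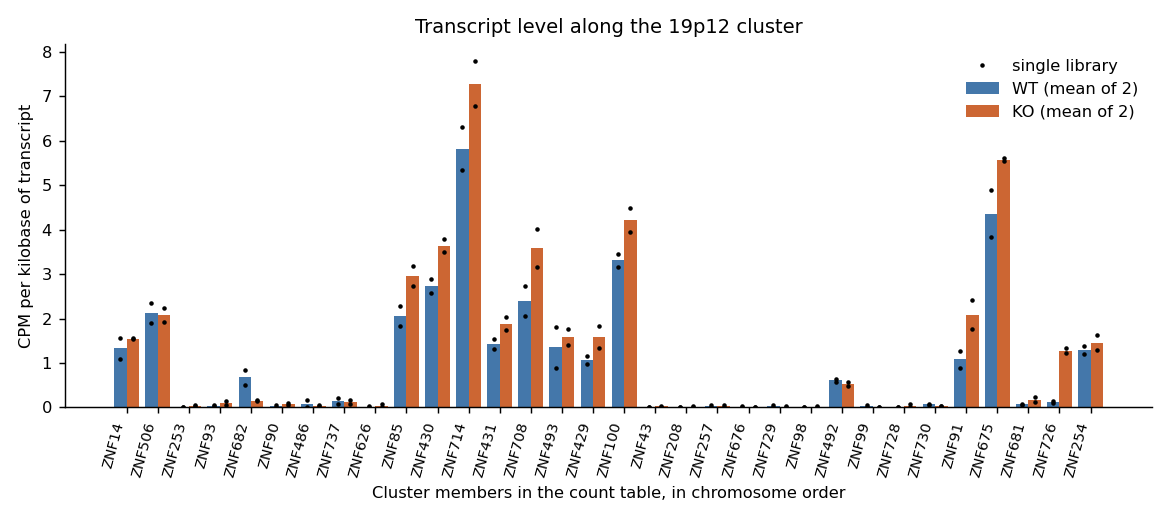
CPM per kilobase of transcript for the 32 counted members, in chromosome order, with bars for the mean of the 2 WT (blue) and 2 KO (orange) libraries and a dot for each library. ZNF714 is the highest at 5.82 in WT and 7.29 in KO, and the bars from ZNF43 to ZNF730 stay near 0 except for ZNF492.

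Of the 17 tested members, 3 were higher in KO, 1 was lower and 13 did not pass the test. The 3 higher members are 17.6% of those tested, beside 8.79% of all genes tested that were higher. The 1 lower member is 5.88%, beside 12.1% of all genes, and the 4 called in either direction stand beside 20.9% of all genes. Both KO libraries lay above both WT libraries in 10 of 17 members, 58.8%, against 30.4% of all genes, and below in 2, against 30.0% of all genes. The log2 fold change was above 0 in 13 of 17 members, 76.5%, and in 51.4% of all genes. The shares above WT and above 0 also exceeded those of all genes in the other zinc finger groups given below. The members' median log2 fold change was 0.34, where the median of all genes tested was 0.01. These counts describe the members that passed the filter of 1 CPM in 2 libraries. ZNF726 passed it through its KO libraries alone and ZNF682 through its WT libraries alone, so that both had to differ to be tested. Among the other 15 tested members 2 were called higher and 0 lower.

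**Figure D2:**
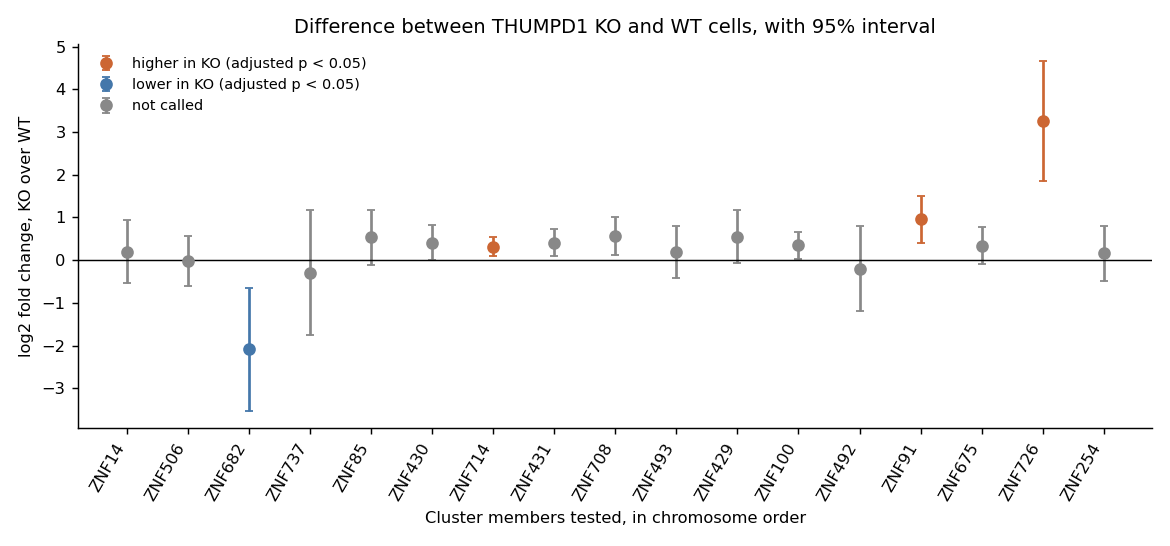
Log2 fold change of KO over WT for the 17 tested members, with the 95% confidence interval of edgeR's quasi-likelihood fit. ZNF726, ZNF91 and ZNF714 were called higher and ZNF682 lower, and 13 members lay above 0.

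ZNF726 differed most. It is a KRAB zinc finger gene on the plus strand (ENSG00000213967.12, chr19:23914876-23945159) whose protein has 616 residues and 14 fingers, and its targets are not given here. Its counts were 2 and 4 in WT and 35 in each KO library, or 0.261 and 0.364 against 3.02 and 3.29 CPM. The genotypes did not overlap. The mean rose from 0.312 ± 0.0729 to 3.15 ± 0.186 CPM (SD, n = 2), a log2 fold change of 3.25 (SE 0.68, 95% CI 1.85 to 4.65, adjusted p = 0.0011). Because WT held 6 counts in all, the ratio of the counts, 9.79, had an exact binomial 95% interval of 4.28 to 27.6, which covers counting error only. Without each library in turn the log2 fold change ran from 3.08 to 3.53, on the genes that passed the filter in all 4 libraries. With either KO library left out, ZNF726 would not have reached 1 CPM in 2 libraries. On the opposite strand 223 bases of its exons overlap ENSG00000269289, and 88.0% of the 50-base windows of its transcript occur in no transcript of another gene, so part of its counts could be shared with other genes.

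ZNF91 was the next to rise. It encodes the repressor of SVA elements, and with 31 fingers in 1191 residues it has the longest array among the tested members (ENSG00000167232.14, minus strand, chr19:23304991-23395471). It had 53 counts in each WT library and 150 and 101 in the KO libraries, or 6.91 and 4.82 against 13.0 and 9.48 CPM. Both KO libraries lay above both WT libraries, and KO replicate 1 was the highest. The mean rose from 5.87 ± 1.48 to 11.2 ± 2.46 CPM (SD, n = 2), a log2 fold change of 0.96 (SE 0.27, 95% CI 0.41 to 1.51, adjusted p = 0.0107), which is 1.95-fold. The call was lost without WT replicate 2 (0.70, adjusted p = 0.0917) and without KO replicate 1 (0.71, adjusted p = 0.216). DESeq2 also called it, at an adjusted p of 0.0457.

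ZNF714, the most abundant member, rose by less. Its gene lies on the plus strand (ENSG00000160352.16, chr19:21082159-21125270) and encodes 555 residues with 12 fingers. It had 358 and 607 counts in WT and 790 and 633 in KO, or 46.7 and 55.2 against 68.2 and 59.4 CPM. The highest WT and the lowest KO library were close to each other but did not overlap. The mean went from 51.0 ± 6.04 to 63.8 ± 6.22 CPM (SD, n = 2), a log2 fold change of 0.32 (SE 0.11, 95% CI 0.10 to 0.54, adjusted p = 0.034), or 1.25-fold. The call was lost without WT replicate 1 (0.21, adjusted p = 0.231), without KO replicate 1 (adjusted p = 0.318) and in DESeq2 (adjusted p = 0.121). On the same strand 372 bases of its exons overlap the pseudogene VN1R81P.

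ZNF682 was the one member called lower, and it was tested only because its WT libraries passed the filter. It lies toward the ZNF14 end, on the minus strand (ENSG00000197124.12, chr19:19997058-20039505), and encodes 498 residues with 10 fingers. It had 21 and 18 counts in WT and 6 and 5 in KO, or 2.74 and 1.64 against 0.518 and 0.469 CPM. Both KO libraries lay below both WT libraries. The mean fell from 2.19 ± 0.778 to 0.494 ± 0.0345 CPM (SD, n = 2), a log2 fold change of -2.09 (SE 0.70, 95% CI -3.52 to -0.66, adjusted p = 0.0326), or 4.26-fold lower. The WT to KO ratio of the counts was 4.22, with an exact binomial 95% interval of 2.12 to 9.14. The call was lost without WT replicate 1 (adjusted p = 0.151), KO replicate 1 (adjusted p = 0.151) or KO replicate 2 (adjusted p = 0.141), and when low genes were kept (adjusted p = 0.0522). Without WT replicate 2 it held, at -2.44. These fits kept the filter of all 4 libraries, and with either WT library left out ZNF682 would not have passed it.

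**Figure D3:**
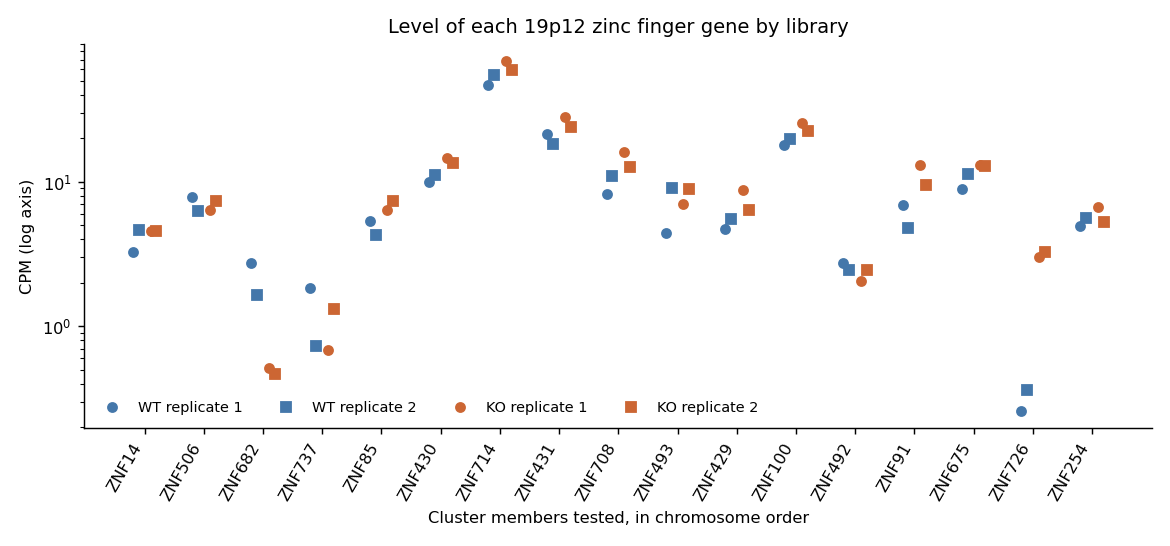
CPM of each of the 17 tested members on a log axis, in chromosome order, with 1 point for each of the 4 libraries (WT in blue, KO in orange, circles for replicate 1 and squares for replicate 2). The points of the genotypes are farthest apart for ZNF726, at 0.261 and 0.364 against 3.02 and 3.29 CPM, and both KO points lie below both WT points for ZNF682.

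A further 3 members had an unadjusted p under 0.05 but did not pass the adjusted threshold. ZNF431 had 164 and 201 counts in WT and 327 and 257 in KO, a log2 fold change of 0.41 (SE 0.15, adjusted p = 0.059). ZNF708 had 63 and 120 against 186 and 135 counts, a log2 fold change of 0.57 (SE 0.22, adjusted p = 0.0607). ZNF100 had 138 and 217 against 295 and 240 counts, a log2 fold change of 0.34 (SE 0.15, adjusted p = 0.119). In each the KO libraries were above the WT libraries. Scaling by library size alone called all 3, which brought the members called higher from 3 to 6, while the share of all genes tested that were called higher went from 8.79% to 15.9%.

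Per kilobase of transcript the 5 most abundant members were ZNF714, ZNF675, ZNF100, ZNF430 and ZNF708, at 5.82, 4.36, 3.32, 2.73 and 2.39 CPM per kb in WT and 7.29, 5.57, 4.22, 3.64 and 3.59 in KO. The order was the same in both genotypes. ZNF675, known as a zinc finger protein that inhibits TRAF6 signalling, went from 10.1 ± 1.71 to 12.9 ± 0.132 CPM (SD, n = 2), with an adjusted p of 0.276. ZNF430 went from 10.6 ± 0.813 to 14.2 ± 0.756 CPM (SD, n = 2), with an adjusted p of 0.155. On this scale ZNF91 stood at 1.09 in WT and 2.08 in KO, ZNF726 at 0.126 and 1.27, and ZNF682 at 0.675 and 0.152.

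The 13 members that did not pass had log2 fold changes from -0.29 to 0.57 and adjusted p from 0.059 to 0.968, and 10 of the 13 were above 0. Besides those named they were ZNF85 (0.53) and ZNF429 (0.55), whose KO libraries were above the WT libraries, and ZNF14 (0.20), ZNF493 (0.19), ZNF254 (0.16), ZNF506 (-0.02), ZNF492 (-0.20) and ZNF737 (-0.29). ZNF737 had 14 and 8 counts in WT and 8 and 14 in KO, so its libraries overlapped. ZNF492 shares 29.4% of its 50-base windows with ZNF98, a neighbour with 1 count in all, so their counts are uncertain.

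The 15 members below the filter stayed near the floor. Of them, 14 had no more than 5 counts in any library and 8, 15, 13 and 27 counts together in WT replicates 1 and 2 and KO replicates 1 and 2. ZNF93, the repressor of L1 elements, had 1 and 1 counts in WT and 2 and 4 in KO, a difference not detectable at this depth. ZNF208, whose 36 fingers make the longest array in the cluster, had 0 in both WT and 2 in both KO libraries, and ZNF43 had 0 and 0 against 1 and 2. The fifteenth, ZNF681, had 4 and 4 counts in WT and 17 and 8 in KO, a count ratio of 2.62 with an exact binomial 95% interval of 1.15 to 6.73. The others were ZNF253, ZNF90, ZNF486, ZNF626, ZNF257, ZNF676, ZNF729, ZNF98, ZNF99, ZNF728 and ZNF730. Without the filter, none of the 15 was called.

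What the genes encode was then compared between members with and without enough reads. The tested members had 8 to 31 fingers with a median of 13, and those below the filter 9 to 36 with a median of 14. The share of 50-base transcript windows found in no other gene had a median of 94.4% in tested members and 92.5% in those below the filter, with the lowest value, 41.9%, in ZNF98. The GC content of the tested transcripts ran from 33.2% to 40.7%.

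The members' values were set beside those of other zinc finger genes. At 19q13.41, a cluster of KRAB zinc finger genes around ZNF83, 27 genes were tested, the median log2 fold change was 0.35, and 6 (22.2%) were higher and 0 lower. ZNF83 itself had 26 and 50 counts in WT and 165 and 184 in KO, a log2 fold change of 1.96 (SE 0.25, adjusted p = 2.61e-06). That was the highest value among the 27. At 19p13.2, 18 genes were tested, the median was 0.27, and 2 (11.1%) were higher and 1 lower. Other zinc finger genes were taken by symbol, as those named ZNF with a number. The 411 tested ones outside 19p12 still included those of these 2 clusters. Over the 411 the median was 0.19, with 76 (18.5%) higher and 24 (5.84%) lower. Both KO libraries lay above both WT libraries in 63.0% of the tested genes at 19q13.41, 38.9% at 19p13.2 and 47.7% of the 411, beside 58.8% of the members. The log2 fold change was above 0 in 92.6%, 83.3% and 72.7% of these groups, beside 76.5% of the members. The share of 19p12 members called higher, 17.6%, lay between those of the 2 other clusters, and the differences between these groups were not tested.

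The same chromosome also holds many genes of other families. A set of 732 tested genes of chromosome 19 was taken as those whose symbol does not begin with ZNF. Zinc finger genes under other names, such as ZFP, were not removed from it. Its median log2 fold change was -0.11, with 31 higher and 139 lower, and the median lay below 0 under each of the 5 normalizations tried. Of 11 genes tested on the 19p13.11 side of the cluster, among them the zinc finger gene ZNF101 (0.23, adjusted p = 0.619), 0 were higher and 1, GATAD2A, was lower, at -0.38 (log2). Of 6 on the 19q12 side, 1, URI1, was higher, at 0.29 (log2) and 0 were lower.

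**Figure D4:**
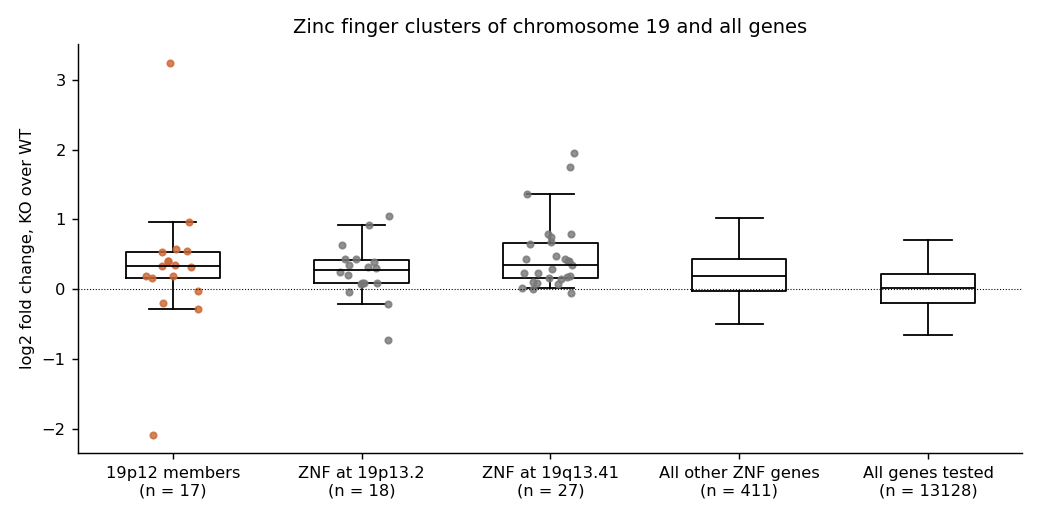
Log2 fold change of KO over WT for the tested 19p12 members, the zinc finger genes at 19p13.2 and at 19q13.41, all other zinc finger genes and all genes tested, with boxes for the quartiles, a line for the median, whiskers from the 5th to the 95th percentile and a dot for each gene of the 3 clusters. The group of all other zinc finger genes holds those named ZNF with a number outside 19p12, and includes those at 19p13.2 and 19q13.41. The medians are 0.34, 0.27, 0.35, 0.19 and 0.01.

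GC content moved with the fold change over the whole table. In 5 bins of 2608 genes from low to high GC content of the transcript, the median log2 fold change was 0.13, 0.10, 0.02, -0.07 and -0.18, and the share of genes called higher in KO went from 15.3% in the lowest bin to 1.92% in the highest. In the lowest bin, from 30.73% to 40.66% GC, stood 16 of the 17 tested members, whose median was 0.34. The median over all genes of that bin, 0.13, lies between the members' median and that of all genes tested. The part of GC content in the members' values was not tested. By level, 10 of the 17 were in the lowest bin, below 7.7 CPM, where 7.78% of all genes were called in either direction. The median log2 fold change was 0.144 over all genes of that bin and 0.178 over its 10 members. In the next bin, up to 22.9 CPM, it was 0.019 over all genes and 0.408 over its 5 members. Bins 3 and 4 held 1 member each, at 0.411 and 0.318, beside 0.01 and -0.01 over all genes. The part of level in the members' values was not tested.

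**Figure D5:**
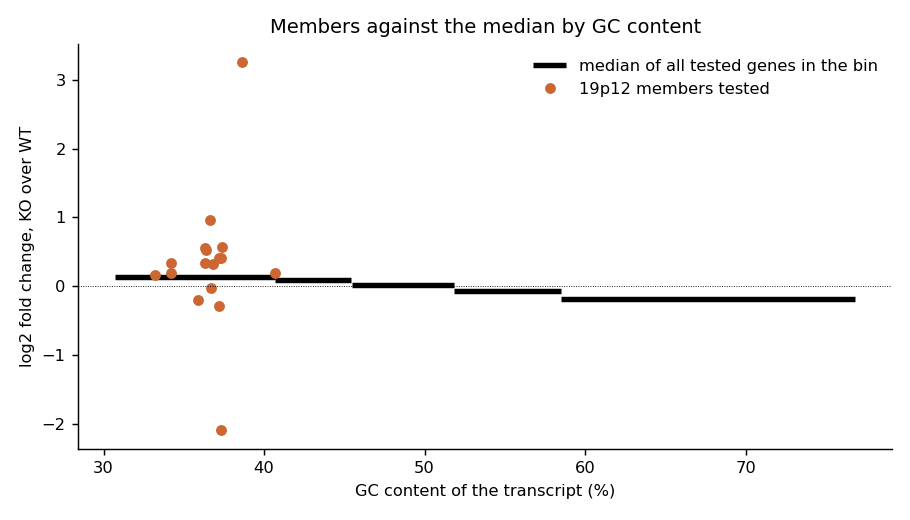
Log2 fold change of KO over WT against the GC content of the transcript in percent, with a dot for each of the 17 tested members and a bar for the median of all genes tested in each of 5 GC bins. The bars go from 0.13 down to -0.18, and the members lie at the low end of the GC axis, from 33.2% to 40.7%.

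The genes that carry out KRAB repression were taken from a list of 26, all of them tested. TRIM28, the corepressor that KRAB domains bind, had 3526 and 5485 counts in WT and 5132 and 4953 in KO, a log2 fold change of -0.08 (SE 0.06, adjusted p = 0.389). SETDB1, which methylates histone H3 at lysine 9, had 573 and 807 counts in WT and 1098 and 967 in KO, and rose from 74.1 ± 0.917 to 92.8 ± 2.86 CPM (SD, n = 2), a log2 fold change of 0.33 (SE 0.08, adjusted p = 0.00619). ZNF274, a KRAB zinc finger protein that binds the 3′ ends of zinc finger genes together with SETDB1, was at 24.3 ± 3.24 CPM in WT and 30.8 ± 0.221 CPM in KO (SD, n = 2), a log2 fold change of 0.35 that did not pass (SE 0.14, adjusted p = 0.0786).

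Of the 26 genes, 19 did not pass. With SETDB1, ATRX, a chromatin remodeller found at zinc finger genes, was higher (0.26, adjusted p = 0.0173). The 5 that were lower were CHD4, the remodelling ATPase of NuRD (-0.42), DNMT3A, a DNA methyltransferase (-0.33), UHRF1, which maintains DNA methylation (-0.30), MPHOSPH8, a subunit of the HUSH complex (-0.29), and the histone deacetylase HDAC1 (-0.22). That is 7.69% of the list higher and 19.2% lower, beside 8.79% and 12.1% of all genes tested. The calls of ATRX, MPHOSPH8 and HDAC1 held in 2 of 4 fits without a library, and those of SETDB1 and DNMT3A in 3 of 4. Other settings took the adjusted p as high as 0.064 for ATRX, 0.0962 for MPHOSPH8 and 0.116 for HDAC1. Of the genes that did not pass, SMARCAD1 (0.315, adjusted p = 0.0527) was called higher in 6 of 7 other settings. ATF7IP, DNMT1 and ZNF274 were called in 1 of these 7 each. The list's median log2 fold change was -0.07, and 0.015 when libraries were scaled by size alone.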

How the data were processed

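RNA from 2 WT and 2 THUMPD1 KO libraries was analysed from the counts the authors deposited, as raw whole numbers for each gene symbol. For RNA-seq the paper's methods describe STAR alignment, RSEM quantification, GRCh38 and GENCODE 46, and 3 samples per genotype. The submitters' processing notes name hg19. Which pipeline made the counts, and how it treated strand and reads with several matches, is not given in the sources used here. Reads of near-identical members may therefore be split or lost. A deposited table of the authors' own comparison (means, log2 fold changes with errors, p-values) was not used. Ribosome profiling and mouse tissue were not analysed here.

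Counts were fitted with edgeR 4.0.16 in R 4.3.3 (glmQLFit and glmQLFTest, TMM scaling, all 4 libraries, genotype only) on 13128 genes that reached 1 CPM in 2 or more libraries. P-values were adjusted over all of them by the Benjamini-Hochberg method at a threshold of 0.05, two-sided. With 2 against 2 libraries an exact permutation test cannot go below p = 0.333, so none was used for single genes. The fit was tested on simulated counts.

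Members and lists were chosen by symbol with earlier results of these data known. All members were accounted for: those called with full values, those with an unadjusted p under 0.05 or among the 5 most abundant per kilobase with values, the rest by range and counts. From the list of TRIM28 pathway genes, TRIM28, SETDB1, ZNF274 and each gene called, in the main fit or in another setting, were named. ZNF83 stood for the other clusters and had the highest log2 fold change among their tested genes, so it is not typical of them. GATAD2A and URI1 were named after their values were seen.

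Positions, exons and transcripts came from GENCODE 44 on GRCh38, and promoters from RefSeq on GRCh38.p14. GC content was that of the canonical transcript and known for 99.3% of the genes tested. Fingers were counted in translated reading frames. Depth ran from 7875722 to 11362363 counts per library. The exact binomial intervals and the floors cover counting error only. The intervals of log2 fold changes come from the fit and also cover the spread between libraries. The counts carry no molecular identifiers.

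Alternatives were library size alone, upper quartile, DESeq2 1.42.0, limma-voom 3.58.1 with quantile normalization, other filters, an adjusted p under 0.01, the replicate number as a block, and leaving out each library in turn, where the lone library is assumed to vary like the others. Tables and figures used Python 3.11.15 with Biopython 1.88, SciPy 1.17.1, pandas 2.3.3, matplotlib 3.10.9 and NumPy 2.4.6.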

Additional observations from a re-analysis of the deposited data

How the results depend on the processing

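The members called higher were 3, and 6 under library-size scaling, 5 under upper-quartile scaling, 1 with DESeq2 and 1 at an adjusted p under 0.01. The member called lower was 1, and 0 with DESeq2, with no filter, with 10 counts in every library and at an adjusted p under 0.01. Without each library in turn, 1 to 5 members were higher and 0 to 1 lower. The members' median log2 fold change was 0.34, and 0.424 with library size alone, which moved the median of all genes to 0.09. Without each library it ran from 0.283 to 0.452. DESeq2 gave no adjusted p for ZNF682, ZNF737 and ZNF726, and the filter of 10 counts dropped these 3. For the other changes the cause was not tested.

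Among all genes tested, 2748 were called, 1764 with DESeq2 and 1594 at an adjusted p under 0.01, and 1620 to 2591 without each library. Genes called higher were 1154, and 2081 with library size alone, 645 with DESeq2 and 556 at an adjusted p under 0.01, with 601 to 1098 without each library. Genes called lower were 1594, and 1038 at an adjusted p under 0.01, with 1019 to 1493 without each library. Of the TRIM28 pathway list 7 were called, 4 at an adjusted p under 0.01 and 3 to 9 without each library. THUMPD1 stayed between -3.02 and -2.85 (log2) throughout.

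ZNF506, at -0.02, was 0.064 under library-size and 0.005 under upper-quartile scaling, and ran from -0.18 to 0.14 without each library. Without each library ZNF14 ran from -0.016 to 0.49, ZNF737 from -0.87 to 0.45, ZNF493 from -0.20 to 0.84 and ZNF254 from -0.016 to 0.32, and none of these was called.

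The titles give same-numbered WT and KO libraries only a number in common. Their deviations correlated at 0.0756 over 10005 genes, which cannot show whether they were prepared together. With the replicate block, ZNF431 was also called (0.40, adjusted p = 0.0444), and 1396 genes were higher and 1826 lower.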
